A study of Mus musculus with 69 samples.

Results

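The genes described here are 10 genes of the hypoxia-inducible factor (HIF) pathway. They comprise the α subunit genes Hif1a, Epas1 and Hif3a, the prolyl hydroxylase genes Egln1 and Egln3, and the target genes Vegfa, Adm, Slc2a1, Bnip3 and Ankrd37. They were taken by gene symbol from a count table of 24411 genes, which held all 10, and all 10 were among the 21175 genes that were tested, those whose counts summed to 2 or more over the 69 libraries. The libraries were made from mouse kidneys labelled Hoxb7Cre;UPRTf/+ or Atp6b1v1Cre;UPRTf/+. UPRT is an enzyme of Toxoplasma gondii, placed at the Rosa26 locus behind a stop cassette that Cre removes. Where it is expressed, injected 4-thiouracil (4-TU) is built into new RNA, which is biotinylated and pulled down. All mice, controls included, carried the transgene and received 4-TU at 430 mg/kg 4 hours before the kidney was taken.

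Control, iAKI and vAKI mice were compared. Control mice were untreated apart from 4-TU, iAKI mice had both renal pedicles clamped for 10 minutes and were labelled 24 hours later, and vAKI mice had restricted water and food for 72 hours. Hoxb7 pulldowns came from 10 Control, 7 iAKI and 7 vAKI mice, and Atp6b1v1 pulldowns (the spelling of the labels, the gene being Atp6v1b1) from 11 Control, 6 iAKI and 7 vAKI mice. A further 21 libraries held unselected kidney RNA (Total) of Control mice of both genotypes. Mice were 5.5 months old, except for 5 Control pulldowns and 5 Total libraries of 3 months. Injury was tested in the 22 pulldown libraries of male mice of 5.5 months. Hoxb7Cre acts in the collecting duct with its principal and intercalated cells, and Atp6v1b1Cre in intercalated cells. Since Cre acts permanently, descendants of these cells are labelled too.

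HIF is a transcription factor made of an oxygen-regulated α subunit and a constant β partner encoded by Arnt. In normal oxygen the prolyl hydroxylases mark the α subunit for destruction through the von Hippel-Lindau protein, and in low oxygen the α subunit persists and switches on genes for blood vessel growth, glucose uptake and adaptation of mitochondria. This control acts mainly on the protein, so the RNA of an α subunit gene does not report how active the factor is, whereas the RNA of its targets is closer to its output. The inner kidney, through which collecting ducts run, is poorly oxygenated even in health. The targets are also driven by other signals.

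Library totals ran from 12618062 to 30305464 counts, with a median of 20868430. The labelled tissue was checked with marker lists, and the summed level of 6 principal cell markers was 2694 to 3439 CPM (counts relative to the library total, scaled by TMM) in the 4 Hoxb7 control males and 782 to 804 CPM in the 4 Atp6b1v1 control males. The 7 intercalated cell markers summed to 590 to 952 CPM and 743 to 978 CPM. The 6 proximal tubule markers still summed to 1733 to 3106 CPM and 1770 to 3568 CPM, so RNA of other segments remained in both pulldowns. In the 21 Total libraries, of both sexes and ages, the medians were 867 CPM for principal cell, 387 CPM for intercalated cell and 11784 CPM for proximal tubule markers. Some libraries stood apart from their group. Cyp27b1, which makes active vitamin D, was at 97.3 to 186 CPM in the 3 vAKI Hoxb7 males and at 93.3 CPM in the female of replicate 5, but at 11.0, 20.3 and 17.2 CPM in the females of replicates 1, 2 and 3. In these 3 libraries Havcr1, a proximal tubule injury gene, was at 4.87, 8.77 and 26.2 CPM, against 0.822 to 1.05 CPM in the vAKI males and 3.83 CPM in the female of replicate 5. Lcn2, another injury gene, was at 13.6, 19.6 and 11.7 CPM in them. It was at 13.8 to 18.3 CPM in the vAKI males and 18.0 CPM in the female of replicate 5. Hoxb7 females of 5.5 months had 2.22 to 6.88 CPM as controls and 9.24 to 24.4 CPM in iAKI. For Cyp27b1 these control females had 3.74 to 21.3 CPM and the iAKI females 6.47 to 18.0 CPM. For Havcr1 they had 0.0772 to 2.38 CPM and 20.0 to 56.4 CPM. The 3 libraries thus differed from the others of their label in Cyp27b1 but were near them in Lcn2. Their Cyp27b1 values lay within the range of the control females. Havcr1 of replicate 1 was close to that of replicate 5, whereas that of replicate 3 lay within the iAKI range. The label is in doubt and was kept. Havcr1 was at 4.76 CPM in the iAKI Atp6b1v1 male of replicate 4, against 64.9 and 273 CPM in the other iAKI males of that genotype. Tests that turn on these libraries are also given without them where a fit without them was made.

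The 9 members found in the RefSeq promoter table (GRCm38.p6) were searched for ACGTG on either strand. This is a form of the core of the hypoxia response element, through which HIF acts on its targets. Other forms of the core were not searched. The table gave 10 promoters for them, since Vegfa had more than 1 start, each spanning 250 bases before to 50 bases after the start. The letters were present in 7 of the 10, compared with 19.6% of all 32851 promoters. The palindrome CACGTG, which contains ACGTG on both strands, was in the promoters of Hif1a and Bnip3 and in 7.15% of all promoters. A match of letters is a description and not a bound site. The 150 bases before the start are printed for the 3 targets that moved most in volume depletion of Hoxb7 mice and for Bnip3, which rose in Atp6b1v1 mice. Capitals mark ACGTG or CACGTG. The windows are chr17:46032378-46032527 on the minus strand for Vegfa, chr7:110627507-110627656 on the plus strand for Adm, chr4:119108595-119108744 on the plus strand for Slc2a1 and chr7:138909507-138909656 on the minus strand for Bnip3.
Vegfa: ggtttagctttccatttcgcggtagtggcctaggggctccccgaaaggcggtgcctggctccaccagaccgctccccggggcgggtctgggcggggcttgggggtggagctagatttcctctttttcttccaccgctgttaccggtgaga
Adm: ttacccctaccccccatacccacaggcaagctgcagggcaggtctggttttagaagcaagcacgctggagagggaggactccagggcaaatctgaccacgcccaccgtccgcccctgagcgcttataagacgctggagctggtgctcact
Slc2a1: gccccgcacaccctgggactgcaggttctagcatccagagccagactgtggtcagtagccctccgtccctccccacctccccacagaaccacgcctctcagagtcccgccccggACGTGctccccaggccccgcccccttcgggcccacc
Bnip3: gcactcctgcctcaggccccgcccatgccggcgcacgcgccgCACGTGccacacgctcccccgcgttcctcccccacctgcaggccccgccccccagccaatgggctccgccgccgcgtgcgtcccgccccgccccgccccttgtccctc
The motif of Slc2a1 began 36 bases before the start and that of Bnip3 farther upstream. The printed Vegfa and Adm stretches hold no ACGTG on either strand, which leaves other forms of the core open. A second Vegfa start, inside the gene at chr17:46025114-46025413, has ACGTG on the opposite strand 211 bases before it.

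In control mice the first question was how the pulldowns differ from the whole kidney. Levels between genes were compared as CPM per kilobase of exon. Hif1a was the highest member in both pulldowns, with a mean of 96.3 in Hoxb7 and 91.6 in Atp6b1v1, while in Total RNA it was the fourth, at 35.9. Total RNA was led by Bnip3 at 87.5, Vegfa at 69.2 and Epas1 at 44.0. Adm, Egln3, Hif3a and Ankrd37 were the lowest members in all 3 kinds of RNA, at 9.13 or less. Of neighbours in the order, Vegfa and Slc2a1 in Hoxb7 pulldowns, at 55.9 and 57.1, overlapped widely between libraries.

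**Figure D1:**
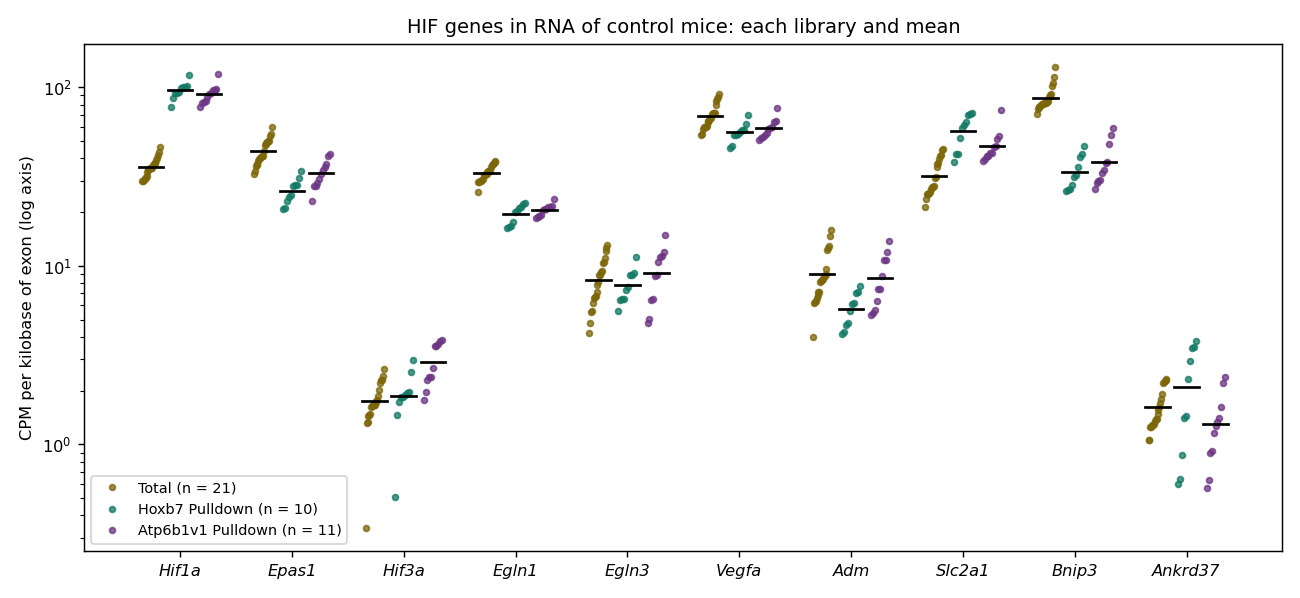
Levels of the 10 genes in control libraries, as CPM per kilobase of exon on a log axis. Points are libraries of Total RNA (n = 21), Hoxb7 pulldowns (n = 10) and Atp6b1v1 pulldowns (n = 11), and bars are means. Hif1a lies higher, and Bnip3 and Egln1 lower, in every pulldown library than in every Total library.

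Hif1a (chr12:73901375-73947530), the most widely expressed oxygen-regulated subunit, stood at 212 CPM ± 26.7 (SD, n = 21) in Total RNA, with a lowest value of 176, a median of 208 and a highest of 274. In Hoxb7 pulldowns it was at 568 CPM ± 61.0 (n = 10), ranging from 456 to 689 with a median of 569, and in Atp6b1v1 pulldowns at 540 CPM ± 67.6 (n = 11), ranging from 458 to 703 with a median of 538. No pulldown library reached as low as the highest Total library. The log2 difference from Total was 1.45 ± 0.06 (SE, adjusted p = 1.89e-25) for Hoxb7 and 1.41 ± 0.06 (adjusted p = 2.33e-25) for Atp6b1v1 by the quasi-likelihood test of edgeR, with p-values adjusted by Benjamini-Hochberg. Bnip3 (chr7:138890836-138909519), a mitochondrial protein of mitophagy, ran the other way, from 161 to 294 CPM with a median of 186 in Total RNA, against 59.2 to 105.8 (median 72.3) in Hoxb7 and 60.6 to 133 (median 78.1) in Atp6b1v1 pulldowns. Its groups did not overlap either, with log2 differences of -1.39 ± 0.09 and -1.14 ± 0.09. Egln1 (chr8:124908587-124949324), the main oxygen sensor of the pathway, was likewise lower in every pulldown, at 58.4 to 81 CPM in Hoxb7 (median 72.5) and 67 to 84.9 in Atp6b1v1 (median 74.5) against 93.4 to 138 in Total RNA (median 117).

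Against Total RNA, 2 members were higher and 5 lower in Hoxb7 pulldowns, where 66.6% of all tested genes differed, 35.6% up and 31.1% down. Besides Hif1a, the glucose transporter gene Slc2a1 (chr4:119108711-119137983) was higher, by 0.84 ± 0.07 on the log2 scale. Epas1 (chr17:86753700-86833410), the gene of HIF-2α, was lower by -0.71 ± 0.09, Adm by -0.62 ± 0.17 and Vegfa by -0.24 ± 0.07. In Atp6b1v1 pulldowns 3 members were higher and 4 lower, against 63.8% of all genes, 34.4% up and 29.4% down. Hif3a (chr7:17031507-17062427), a further α subunit gene with isoforms that restrain the others, was higher there by 0.74 ± 0.17 and Slc2a1 by 0.68 ± 0.07, whereas Epas1 was lower by -0.36 ± 0.09 and Vegfa by -0.20 ± 0.07. For 3 members of 10 the groups did not overlap in either comparison (Hif1a, Bnip3 and Egln1), against 25.9% of all genes in Hoxb7 and 24.1% in Atp6b1v1. In females only the Vegfa differences, at -0.08 and -0.15, that of Adm in Hoxb7, at -0.38, and that of Hif3a in Atp6b1v1, at 0.76 (edgeR, adjusted p = 0.0513), did not pass, and Ankrd37 newly passed in Hoxb7 at 0.70 (adjusted p = 0.0430). These 2 comparisons share their Total libraries, and any pairing of pulldown and Total by mouse was not modelled. The pulldown selects for RNA made in the last hours whereas Total RNA is the standing pool. It also selects for a segment of the kidney, although RNA of other segments remained. Age of the RNA, cell type and such remaining RNA cannot be told apart here. In bulk RNA, moreover, fewer cells of a type and less RNA per cell cannot be told apart.

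Between the pulldowns of control mice, Adm and Epas1 were higher in Atp6b1v1 than in Hoxb7, the only members of 10 past the threshold, where 9.93% of all genes passed. Adm (chr7:110627661-110629820), which encodes the vasodilator peptide adrenomedullin, ran from 8.61 to 22.4 CPM (median 12.0) in Atp6b1v1 and from 6.70 to 12.5 (median 9.44) in Hoxb7 pulldowns, a log2 difference of 0.60 ± 0.19 (edgeR, adjusted p = 0.0355). Epas1 ran from 129 to 235 CPM (median 182) against 116 to 189 (median 148), with a log2 difference of 0.35 ± 0.10 (adjusted p = 0.0157). Both genes overlapped between the groups, as did all 10 members, where 1.13% of all genes did not. Each call rested on both sexes together. Epas1 gave 0.27 (edgeR, adjusted p = 0.294) in males only and 0.42 (adjusted p = 0.0965) in females only. Adm gave 0.80 (adjusted p = 0.0528) in males only, 0.49 (adjusted p = 0.356) in females only and 0.52 (adjusted p = 0.196) in mice of 5.5 months. For Hif1a the difference was -0.04 ± 0.07.

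Sex was associated with several members in control mice. Egln3 (chr12:54178981-54203860), a hydroxylase that HIF itself induces, was lower in females in all 3 kinds of RNA. In Total RNA it was at 11.2 to 20.9 CPM (median 17.0) in 10 females and at 21.7 to 34.6 (median 27.6) in 11 males, in Hoxb7 pulldowns at 14.9 to 20.3 (median 17.4) in 6 females and 23.5 to 29.7 (median 24) in 4 males, and in Atp6b1v1 pulldowns at 12.7 to 17.4 in 4 females and 23.4 to 39.8 (median 29.7) in 7 males. The sexes did not overlap in any of the 3, but these are not separate sets if pulldown and Total libraries share mice. The share of all genes without such overlap between the sexes was not counted. Over all control libraries the female minus male difference was -0.76 ± 0.08 on the log2 scale (edgeR, adjusted p = 5.19e-11). Slc2a1 was higher in females by 0.49 ± 0.06 (adjusted p = 2.83e-08), with 109.4 to 157 CPM (median 136) in 10 females and 74.7 to 98.5 (median 89.3) in 11 males in Total RNA. Bnip3 was also higher in females, by 0.35 ± 0.07, and Ankrd37 by 0.48 ± 0.18 and Hif1a by 0.14 ± 0.05 with adjusted p of 0.0407 and 0.0400. In mice of 5.5 months only, Hif1a gave 0.14 with an adjusted p of 0.0800 in the edgeR fit. Egln1 and Vegfa were lower, by -0.22 ± 0.04 and -0.19 ± 0.06. In all, 4 members of 10 were higher and 3 lower in females, while 13.8% and 16.5% of all genes were, 30.3% together.

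After volume depletion the targets Vegfa, Adm and Slc2a1 and the subunit gene Hif3a rose in Hoxb7 males, and no member fell past the threshold. Vegfa (chr17:46016993-46032369), the vascular endothelial growth factor and the main signal for blood vessel growth, stood at 232, 235, 202 and 268 CPM in the 4 control males of replicates 2 to 5 and at 500, 532 and 658 CPM in the 3 vAKI males of replicates 4, 6 and 7. Every vAKI library lay above every control. The log2 fold change was 1.27 ± 0.16 (SE, edgeR, adjusted p = 4.09e-06), a 2.41-fold rise. Slc2a1 was at 147, 133, 208 and 181 CPM in the controls and at 314, 393 and 402 CPM in vAKI, all above every control, with a log2 fold change of 1.15 ± 0.18 (adjusted p = 3.98e-05). Adm, far lower in level, went from 6.70, 6.88, 8.99 and 7.54 CPM to 15.0, 17.4 and 25.6 CPM, again without overlap, by 1.37 ± 0.22 (adjusted p = 5.97e-05). These 3 targets passed without any 1 of the 7 libraries.

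Hif3a was at 12.3, 9.83, 12.7 and 19.9 CPM in the control Hoxb7 males and at 24.7, 23.4 and 25.5 CPM in vAKI. The vAKI libraries lay close together and above all controls, and the log2 fold change was 0.84 ± 0.26 (edgeR, adjusted p = 0.0145). Without control replicate 3 it was 0.71 with an adjusted p of 0.0543. Egln1 also did not overlap, at 76.9, 79.4, 81 and 75.4 CPM in the controls and 62.1, 64.5 and 63.5 CPM in vAKI, all below every control, but its difference of -0.30 ± 0.12 missed the threshold (adjusted p = 0.0553). The other subunit genes gave -0.22 for Hif1a, whose vAKI libraries were at 556, 515 and 432 CPM against 689, 583, 515 and 550 CPM, and 0.33 for Epas1, at 148, 204 and 194 CPM against 156, 189, 116 and 118 CPM. Both overlapped and neither passed, and neither did Egln3 (0.15), Bnip3 (0.27) or Ankrd37 (0.21).

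Thus 4 members of 10 rose and none fell in this comparison, in which 17.9% of all genes rose and 17.6% fell, and the groups did not overlap for 5 members against 39.5% of all genes. The median log2 change of the members was 0.30 and that of all genes 0.00. Over both directions 35.5% of all genes passed. Vegfa, Adm and Slc2a1 are the members with a log2 size of at least 1, a size reached with an adjusted p under the threshold by 16.4% of all genes. The labels give a running library number, and runs of numbers between wide gaps were taken here as series. What a series stands for is not stated. All 3 vAKI libraries fell in 1 series, shared with 2 of the 4 controls. Against those 2 controls alone the mean log2 CPM differed by 1.26 for Vegfa, 1.46 for Adm, 1.39 for Slc2a1 and 1.15 for Hif3a.

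Marker lists of other cells moved in the same libraries. The 7 endothelial markers summed to 125 to 250 CPM in the control Hoxb7 males and 301 to 402 CPM in the vAKI males, with 3 of 7 rising, and the 6 principal cell markers to 2694 to 3439 CPM against 1110 to 1213 CPM, with all 6 falling. Of 7 intercalated cell markers 4 fell, of 4 thick ascending limb markers 3 fell, of 6 macrophage markers 4 rose and 2 fell, of 5 podocyte markers 2 rose, of 6 fat markers 5 fell, and of 6 proximal tubule markers none passed. No marker found in the table was at 0 in any library. The part of cell makeup in the rise of the HIF targets was not tested.

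**Figure D2:**
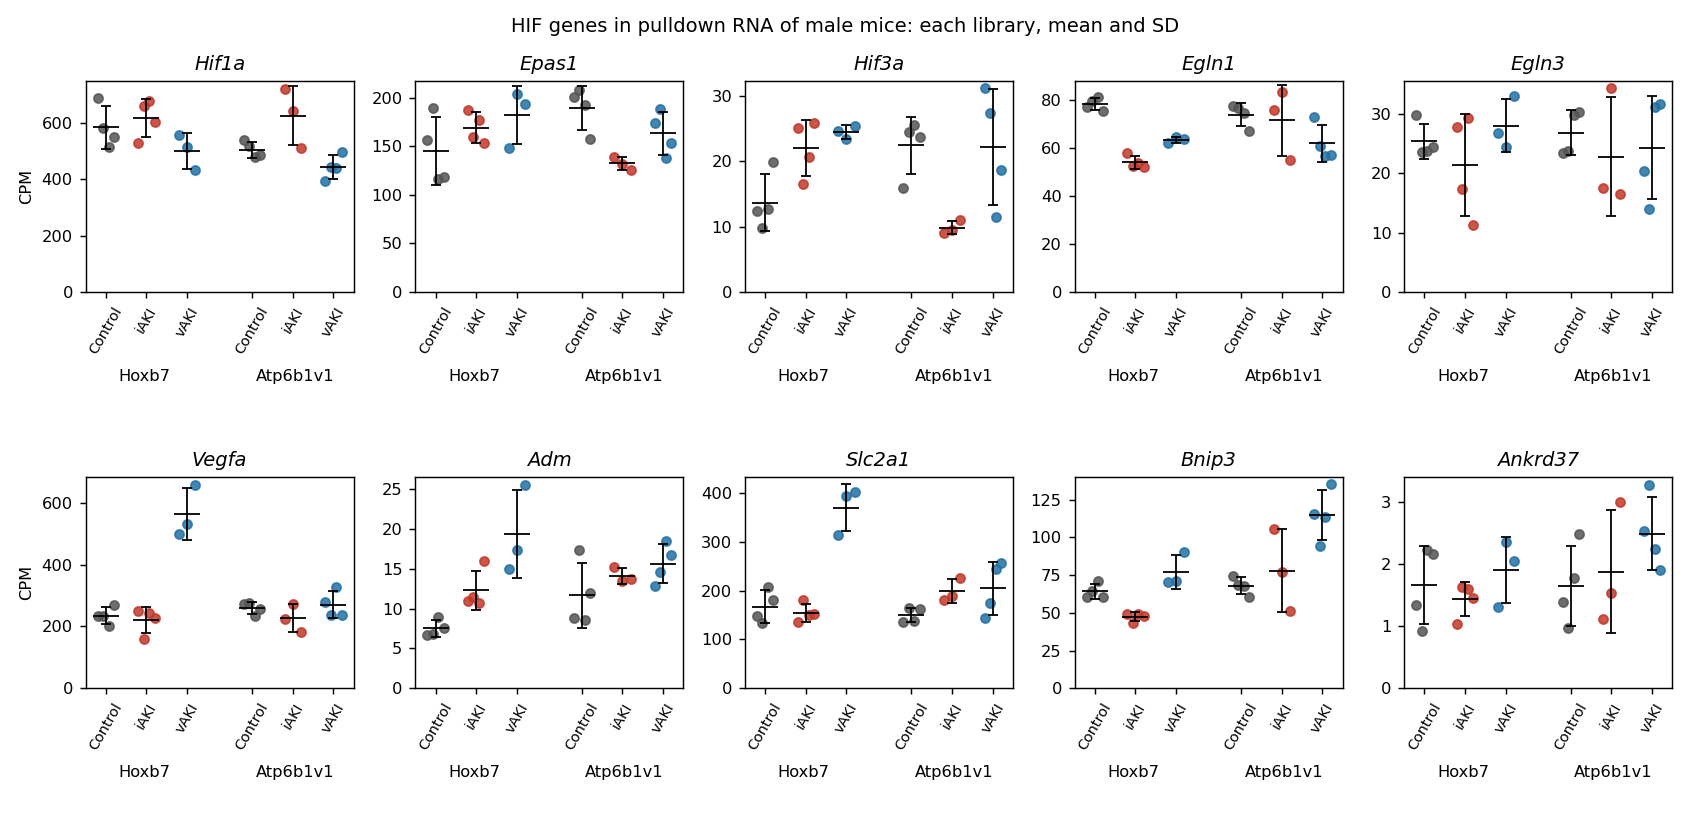
Each of the 10 genes in the 22 pulldown libraries of male mice of 5.5 months, in CPM from 0. Points are libraries, and horizontal lines with bars are means with SD of 3 or 4 libraries per group. Vegfa and Slc2a1 in vAKI Hoxb7 libraries stand above every other library shown, and Hif3a in the 3 iAKI Atp6b1v1 libraries lies at 9.04 to 11.0 CPM, below all 4 controls of that genotype.

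Ischemia gave a smaller set of differences in Hoxb7 males, a rise of Adm and a fall of Egln1. Egln1 was at 58.1, 52.4, 53.7 and 51.9 CPM in the 4 iAKI males of replicates 4 to 7, all below the 75.4 to 81 CPM of the controls. Its log2 fold change was -0.52 ± 0.11 (edgeR, adjusted p = 0.00746), and it passed without any 1 of the 8 libraries. Adm was at 11.0, 11.5, 10.8 and 16.0 CPM against 6.70 to 8.99 CPM in the controls, also without overlap, with a log2 fold change of 0.73 ± 0.21 (adjusted p = 0.0424). The Adm call was lost without iAKI replicate 4, 5, 6 or 7 and without control replicate 2, 3 or 5, each taken singly, when the log2 fold change ran from 0.57 to 0.79 and the adjusted p from 0.0540 to 0.163.

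Bnip3, at 49.1, 43, 49.4 and 47.9 CPM in iAKI and 60.6, 64.3, 71.4 and 60.7 CPM in controls, did not overlap but missed the threshold, with -0.43 ± 0.16 and an adjusted p of 0.106. Vegfa was at 250, 160, 244 and 228 CPM and Slc2a1 at 135, 180, 149 and 152 CPM. All of these lay within the control ranges except for the Vegfa value of 160, which was below. Hif3a at 25.1, 16.5, 20.7 and 25.8 CPM gave 0.70 ± 0.25 (edgeR, adjusted p = 0.0944). The other 6 members changed by -0.23 (Egln3) to 0.24 (Epas1). In this comparison 1 member of 10 rose and 1 fell, while 3.34% of all genes rose and 2.79% fell, 6.13% together, and 3 members did not overlap against 15.9% of all genes. The iAKI libraries share a number series with 2 of the 4 controls, against which Adm differed by 0.83 and Egln1 by -0.53 in mean log2 CPM. The principal cell markers fell here too, 5 of 6, to a sum of 1005 to 1254 CPM, and all 6 fat markers fell, from a sum of 111 to 243 CPM to 44.9 to 92.9 CPM. Of 7 endothelial markers 1 rose, and their sum went from 125 to 250 CPM to 257 to 309 CPM. Of 6 macrophage markers 1 rose and of 7 intercalated cell markers 2 fell. The part of these cells in the values of Adm and Egln1 was not tested.

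In Atp6b1v1 males the subunit genes Hif3a and Epas1 fell after ischemia. Hif3a was at 9.04, 9.53 and 11.0 CPM in the iAKI males of replicates 1, 4 and 5, below all of the controls of replicates 6, 9, 10 and 11 at 16.0, 24.5, 25.6 and 23.8 CPM. The log2 fold change was -1.20 ± 0.27 (edgeR, adjusted p = 0.00976). It was lost without iAKI replicate 1, at -1.12 with an adjusted p of 0.0649, but kept without replicate 4, the library of low Havcr1, at -1.16 with an adjusted p of 0.0361. Epas1 was at 139, 132 and 125 CPM against 200, 208, 192 and 157 CPM, again without overlap, with -0.53 ± 0.16 (adjusted p = 0.0406). Its call was lost without iAKI replicate 1, 4 or 5 or control replicate 6, 9 or 10, with values of -0.55 to -0.47 and adjusted p of 0.0661 to 0.127, and 0.125 without replicate 4.

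Slc2a1 did not overlap either, at 181, 189 and 227 CPM in the iAKI Atp6b1v1 males against 136, 164, 138 and 162 CPM, but 0.40 ± 0.18 missed the threshold (edgeR, adjusted p = 0.177). Bnip3 varied widely, at 105.8, 77.2 and 50.9 CPM, as did Egln3, at 17.4, 34.3 and 16.5 CPM. None of the 10 members rose and 2 fell, while 3.77% of all genes rose and 4.74% fell, 8.51% together, and 3 members did not overlap against 20.6% of all genes. Both number series of these libraries held iAKI and control mice, and Hif3a differed by -1.09 and -1.16 and Epas1 by -0.59 and -0.47 in mean log2 CPM within them. Among the marker lists 2 of 6 proximal tubule markers fell, with a sum of 1770 to 3568 CPM in controls and 823 to 1151 CPM in iAKI, and 1 marker each of fat, of the thick ascending limb and of intercalated cells rose and 1 endothelial marker fell. Their part in these values was not tested.

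After volume depletion Bnip3 was the member that rose in Atp6b1v1 males. It was at 115, 94.5, 114 and 135 CPM in the vAKI males of replicates 1, 2, 6 and 7, all above the 74.6, 68.4, 68 and 60.6 CPM of the controls. The log2 fold change was 0.77 ± 0.16 (edgeR, adjusted p = 0.00222), and it passed without any 1 of the 8 libraries. Vegfa, at 278, 237, 329 and 237 CPM against 274, 277, 233 and 257 CPM, overlapped, and Ankrd37, at 2.54, 3.28, 2.24 and 1.91 CPM against 1.38, 0.968, 1.78 and 2.48 CPM, gave 0.60 without passing. Slc2a1 was at 144, 174, 245 and 255 CPM, of which 1 lay within the control range and 3 above it, with 0.46 ± 0.17 (adjusted p = 0.0694). Without vAKI replicate 1 it was 0.60 with an adjusted p of 0.0110. Adm was at 12.9, 14.6, 18.5 and 16.8 CPM against 8.84, 17.4, 8.61 and 12.0 CPM, and 0.44 ± 0.21 (adjusted p = 0.167) became 0.68 (adjusted p = 0.0305) without control replicate 9. Egln1, at 72.8, 60.9, 56.8 and 56.9 CPM against 67 to 77.2 CPM, gave -0.24 ± 0.11 (adjusted p = 0.153) and -0.33 (adjusted p = 0.0387) without vAKI replicate 1.

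Of the 10 members 1 rose and none fell, against 8.11% and 6.47% of all genes, 14.6% together, and 1 did not overlap against 14.5%. Within the number series Bnip3 differed by 0.55 and 0.95 in mean log2 CPM, Slc2a1 by 0.09 and 0.74, and Hif3a by 0.56 and -0.75. Intercalated cell markers fell in these libraries, 3 of 7, from a sum of 743 to 978 CPM to 487 to 623 CPM, and 2 of 4 thick ascending limb markers fell too. Of 6 fat markers 2 fell, from a sum of 104.2 to 228 CPM to 76.7 to 88.1 CPM. Of the principal cell markers 2 fell and 1 rose, of the endothelial 1 rose and 1 fell, 1 podocyte marker rose, and 1 proximal tubule and 1 macrophage marker fell. The part of cell makeup in the rise of Bnip3 was not tested. Gm45507, an antisense gene, overlaps 22.3% of the exon bases of Bnip3. The paper states that HTSeq was run with its default settings and does not name strand. The part of Gm45507 in the counts of Bnip3 was not tested. Of the exon bases of Hif1a 8.11% and of Slc2a1 2.99% also overlap other genes.

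**Figure D3:**
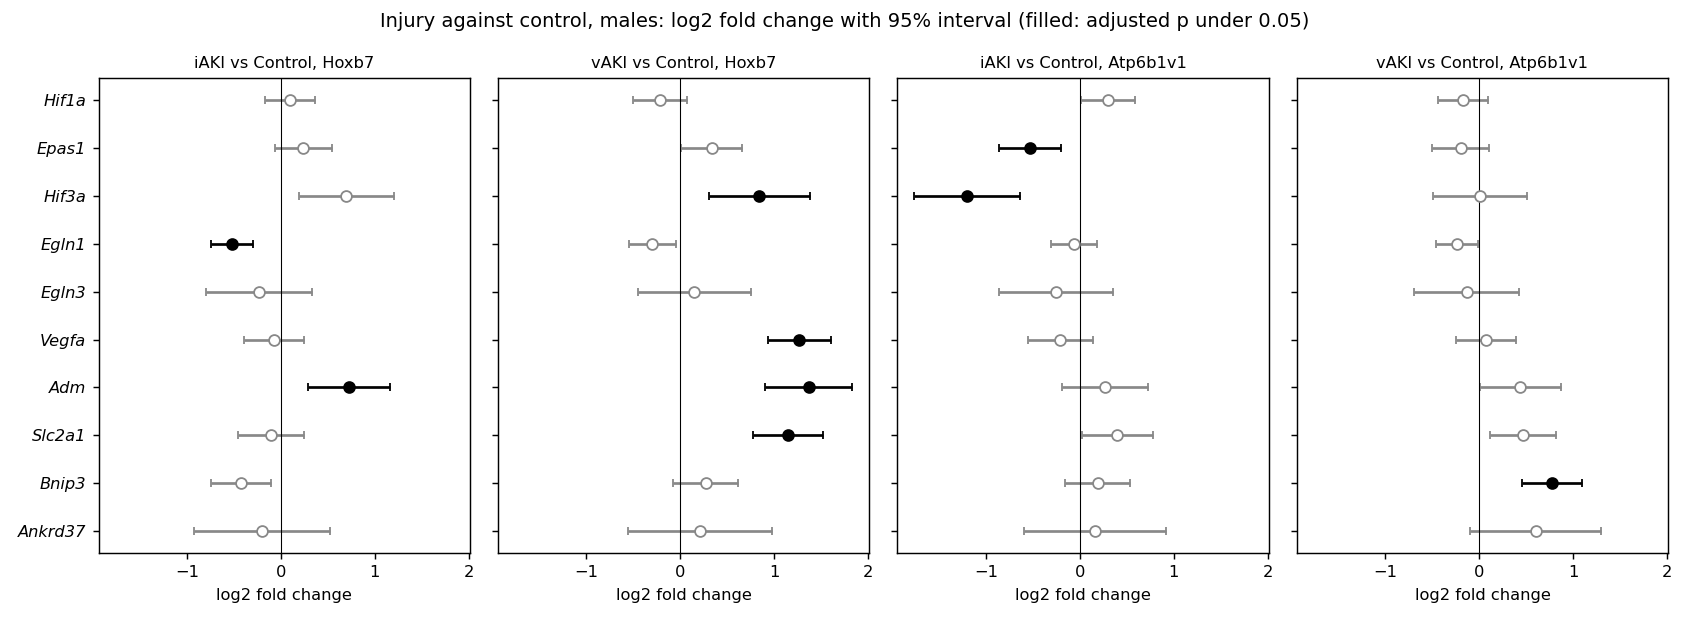
Log2 fold changes of the 10 genes against control in male mice, with 95% intervals, for iAKI and vAKI in each genotype. Filled points passed an adjusted p of 0.05, namely Egln1 and Adm, then Hif3a, Vegfa, Adm and Slc2a1, then Epas1 and Hif3a, then Bnip3, from left to right.

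The 2 stimuli were also compared directly. In Hoxb7 males Vegfa was higher in vAKI than in iAKI by 1.34 ± 0.16, Slc2a1 by 1.25 ± 0.18, Bnip3 by 0.70 ± 0.17 (edgeR, adjusted p = 0.00235) and Adm by 0.64 ± 0.22 (adjusted p = 0.0283). These were 4 members of 10, and none was lower, while 16.4% of all genes were higher and 16.9% lower, 33.3% together. Vegfa, Slc2a1, Bnip3 and Egln1 did not overlap, against 42.9% of all genes. The Adm difference was lost without iAKI replicate 4, 5 or 6 or vAKI replicate 7, at 0.39 to 0.63 with adjusted p of 0.0513 to 0.254. In Atp6b1v1 males Hif3a was higher in vAKI by 1.20 ± 0.27 (adjusted p = 0.00200), Bnip3 was higher by 0.58 ± 0.17 (adjusted p = 0.0112) and Hif1a was lower by -0.47 ± 0.14 (adjusted p = 0.0122), against 15% of all genes higher and 14.3% lower, 29.3% together. Hif1a stood at 394, 444, 440 and 498 CPM in vAKI and 723, 644 and 513 CPM in iAKI, and it and Hif3a did not overlap, against 29.6% of all genes. Hif1a was lost without iAKI replicate 1 (-0.38, adjusted p = 0.0859), and Bnip3 without iAKI replicate 4 or 5 or vAKI replicate 7 (0.32 to 0.55, adjusted p = 0.0530 to 0.118). Without iAKI replicate 4, the library of low Havcr1, Hif3a was at 1.16 (edgeR, adjusted p = 0.0119) and Hif1a at -0.47 (adjusted p = 0.0383). In the same Atp6b1v1 comparison 4 of 6 proximal tubule markers were higher and 1 lower in vAKI, while 6 of 7 intercalated cell, 5 of 6 fat, 3 of 4 thick ascending limb and 3 of 6 principal cell markers were lower and 1 principal cell marker was higher. Of 7 endothelial markers 2 were higher and 1 lower, and 1 podocyte marker was higher. In Hoxb7 2 endothelial, 2 podocyte, 1 fat, 1 principal cell and 1 macrophage marker were higher, and 3 principal cell, 2 thick ascending limb, 2 macrophage and 1 intercalated cell marker lower. Their part in the members' values was not tested.

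Whether the genotypes differed in their response was tested as an interaction. The vAKI response of Vegfa was smaller in Atp6b1v1 than in Hoxb7 males by -1.20 ± 0.22 on the log2 scale (95% interval -1.66 to -0.73, edgeR, adjusted p = 0.00363), and it passed without any 1 of the 15 libraries. It was the only member past the threshold, where 2.04% of all genes had a larger and 2.16% a smaller response in Atp6b1v1, 4.2% together. The same difference was -0.93 ± 0.31 for Adm (adjusted p = 0.0865), -0.68 ± 0.25 for Slc2a1 (adjusted p = 0.124) and 0.50 ± 0.23 for Bnip3 (adjusted p = 0.231), so a difference between genotypes was not shown for these. The iAKI response differed for Hif3a by -1.89 ± 0.37 (interval -2.65 to -1.14, adjusted p = 0.00508) and for Epas1 by -0.76 ± 0.22 (adjusted p = 0.0318), both lower in Atp6b1v1, while 3.67% of all genes had a larger and 4.11% a smaller response there, 7.79% together. Hif3a passed without any 1 of the 15 libraries. Without iAKI Atp6b1v1 replicate 4 it was -1.84 with an adjusted p of 0.0188. Epas1 was lost without iAKI Hoxb7 replicate 4 or 6, iAKI Atp6b1v1 replicate 1, 4 or 5, control Atp6b1v1 replicate 9 or control Hoxb7 replicate 4 or 5, at -0.76 to -0.64 with adjusted p of 0.0558 to 0.0887. In females alone the values were 0.50 for Vegfa in vAKI and 0.024 for Hif3a in iAKI. The first rests on 4 vAKI Hoxb7 females that include the 3 of low Cyp27b1. With both sexes the Vegfa difference was -0.37 (edgeR, adjusted p = 0.559), and without those 3 females -0.79 (adjusted p = 0.0595). Markers also differed in these tests. For the iAKI response all 6 fat markers, 4 of 6 principal cell and 2 of 7 intercalated cell markers had a larger value in Atp6b1v1, and 1 endothelial and 1 proximal tubule marker a smaller one. For the vAKI response 3 principal cell markers had a larger value, and 2 endothelial, 1 podocyte, 1 proximal tubule and 1 macrophage marker a smaller one. Their part in the differences of Hif3a, Epas1 and Vegfa was not tested.

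Few members passed when a log2 size of at least 1 was required as well. In iAKI Hoxb7 none did, against 2.3% of all genes, in iAKI Atp6b1v1 1 did (Hif3a) against 2.82%, and in vAKI Atp6b1v1 none against 5.15%. Between vAKI and iAKI 2 did in Hoxb7 (Vegfa and Slc2a1) against 14.7% and 1 in Atp6b1v1 (Hif3a) against 11.6%. Hif3a passed for the genotype difference of the iAKI response, against 3.49% of all genes, and Vegfa for that of the vAKI response, against 2.93%. In controls 2 did in each pulldown against Total (Hif1a and Bnip3), where 32.5% of all genes did in Hoxb7 and 27.7% in Atp6b1v1, and none did between the pulldowns (4.11% of all genes) or the sexes (5.03%).

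Other genes of the pathway were grouped in 3 lists. Of 24 other HIF targets 11 rose and 3 fell in vAKI Hoxb7 males, where 17.9% of all genes rose and 17.6% fell, with a median log2 change of 0.62 against 0.00 for all genes. Ddit4, a stress-induced inhibitor of mTORC1, went from 30.3 to 109.1 CPM in 4 controls to 604 to 705 CPM in 3 vAKI libraries, a log2 fold change of 3.36 ± 0.53 (edgeR, adjusted p = 3.98e-05). The transcriptional repressors Bhlhe40 and Bhlhe41 rose by 3.18 ± 0.37 and 2.52 ± 0.32. Fam162a fell by 0.82 on the log2 scale, Plod2, a collagen lysyl hydroxylase, by 0.45 and Mxi1, an antagonist of Myc, by 0.43. The other comparisons gave fewer calls in this list and over all genes. There were 1 up and 1 down for iAKI Hoxb7 (median -0.05), 3 up and 2 down for iAKI Atp6b1v1 (median -0.26) and 4 up and 2 down for vAKI Atp6b1v1 (median 0.20), where 6.13%, 8.51% and 14.6% of all genes passed.

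Mxi1 fell by 0.45 on the log2 scale in iAKI Hoxb7. In vAKI Atp6b1v1 Bhlhe40 rose by 1.71 ± 0.34, Angptl4, an inhibitor of lipoprotein lipase, by 0.99, the transferrin receptor gene Tfrc by 0.81 and the chemokine receptor gene Cxcr4 by 0.60, and Fam162a fell by 0.50. In iAKI Atp6b1v1 the histone demethylase gene Kdm3a fell by 0.84 on the log2 scale and the adenylate kinase gene Ak4 by 1.17, whereas Fam162a rose by 0.69 ± 0.18 and Cxcr4 by 0.65. Hmox1, heme oxygenase 1, fell by 2.57 on the log2 scale in vAKI Atp6b1v1, and its 4 controls ran from 75.6 to 1993 CPM.

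The 13 glycolytic targets did not move as one. In vAKI Hoxb7 males 2 rose and 3 fell, with a median of -0.05, a share near the 35.5% of all genes that passed. The lactate exporter gene Slc16a3 rose by 1.60 ± 0.41 (edgeR, adjusted p = 0.00343) and Gapdh by 0.71 ± 0.14, while Pfkfb3, a regulator of glycolytic flux, fell by 0.77 on the log2 scale, the lactate dehydrogenase gene Ldha by 0.44 and Tpi1 by 0.32. In iAKI Hoxb7 males, where 6.13% of all genes passed, none rose and Ldha, Pfkfb3 and Tpi1 fell, by 0.78, 0.74 and 0.52, with Ldha at 263 to 381 CPM in 4 controls and 182 to 192 CPM in 4 iAKI libraries. In Atp6b1v1 males 1 rose and 1 fell after each stimulus, where 8.51% of all genes passed in iAKI and 14.6% in vAKI, Aldoa (0.48 ± 0.13) and Pfkfb4 (-1.20 ± 0.24) in iAKI and Pfkfb3 (0.62 ± 0.17) and Pfkfb4 (-0.96 ± 0.22) in vAKI.

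Another list held 12 partners, further hydroxylases and degradation factors. In vAKI Hoxb7 males 3 rose and none fell, where 17.9% of all genes rose and 17.6% fell, namely Egln2, the remaining prolyl hydroxylase, by 1.66 ± 0.14 (edgeR, adjusted p = 4.11e-08), the β partner Arnt by 0.48 ± 0.10 and Vhl by 0.38 ± 0.11. Egln2 was at 44.2 to 58.7 CPM in the 4 controls and at 134 to 173 CPM in the 3 vAKI libraries, whereas the vAKI libraries of Egln1 lay below its controls. In vAKI Atp6b1v1 males, where 8.11% of all genes rose and 6.47% fell, 4 rose and none fell, the same 3 genes by 0.63, 0.42 and 0.32 and Cited2, a competitor of HIF for its coactivators, by 0.92. In iAKI Hoxb7 males Arnt alone rose, by 0.30 ± 0.09, and none fell, against 3.34% and 2.79% of all genes. In iAKI Atp6b1v1 males, where 3.77% of all genes rose and 4.74% fell, Tceb1, a part of the ligase that destroys the α subunit, rose by 0.60 ± 0.17 and the coactivator genes Ep300 and Crebbp fell by 0.63 and 0.60. The medians of this list were 0.02, 0.20, -0.20 and 0.25 in iAKI Hoxb7, vAKI Hoxb7, iAKI Atp6b1v1 and vAKI Atp6b1v1.

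**Figure D4:**
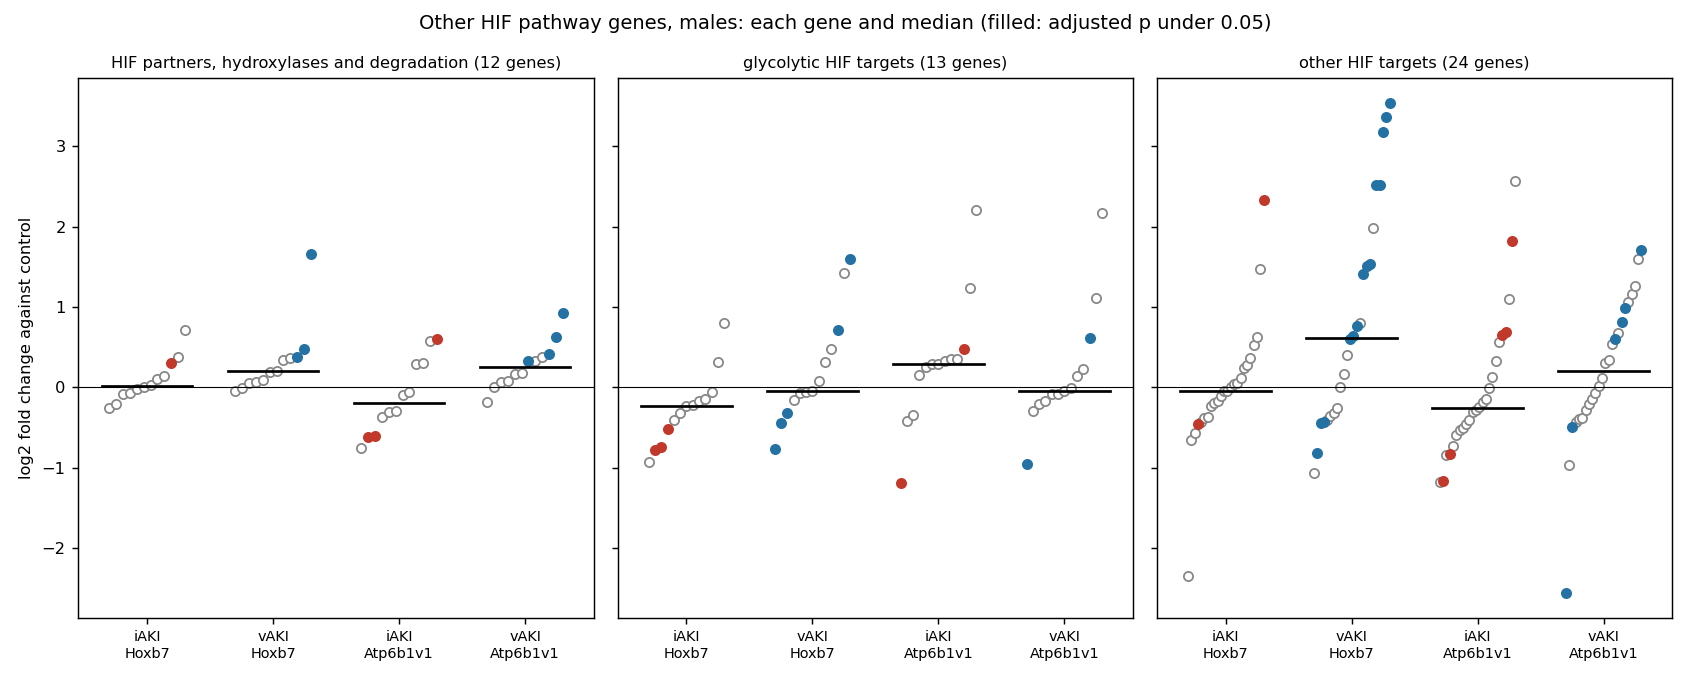
Log2 fold change against control of each gene in 3 lists of other HIF pathway genes (12, 13 and 24 genes), in male mice. Points are genes, filled where the adjusted p was under 0.05, and bars are the medians of the lists. The median of the other HIF targets in vAKI Hoxb7 is 0.62, the highest of the 12 medians.

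Females gave other values in Hoxb7 mice. After volume depletion Vegfa was at 208, 247, 225 and 381 CPM in the vAKI females of replicates 1, 2, 3 and 5, against 196, 298, 246 and 240 CPM in the control females of replicates 1, 6, 9 and 10. The females of replicates 1, 2 and 3 lay within the control range and replicate 5 above it, and all 4 were below the 3 males. The female minus male difference of the vAKI response was -1.16 ± 0.27 for Vegfa (edgeR, adjusted p = 0.00490), -1.0 ± 0.30 for Slc2a1 (adjusted p = 0.0204) and -1.13 ± 0.36 for Adm (adjusted p = 0.0292), 3 members of 10, while 7.48% of all genes had a smaller and 8.51% a larger value in females, 16% together. Slc2a1 was at 207, 224, 193 and 303 CPM in the vAKI females against 149, 246, 214 and 223 CPM. Adm was at 12.4, 12.6, 9.12 and 17.9 CPM against 9.90, 11.5, 12.5 and 10.1 CPM. Of these control females only replicate 1 shares the number series of the vAKI libraries. Its Vegfa and Slc2a1 values lay below every vAKI female, and its Adm value below all but replicate 3. With the number series as a covariate the 3 sex differences passed.

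The females of replicates 1, 2 and 3 are those in which Cyp27b1 stood apart. Without them the differences were -0.63 for Vegfa (edgeR, adjusted p = 0.650), -0.60 for Slc2a1 (adjusted p = 0.718) and -0.66 for Adm (adjusted p = 0.742), resting on 1 vAKI female, which is assumed to vary like the other groups. With all libraries but 1, Vegfa passed in all 15 cases. Slc2a1 was lost in 6 (without vAKI replicate 1, 3, 6 or 7 or control replicate 3 or 6, -0.95 to -0.90, adjusted p = 0.0503 to 0.0557). Adm was lost in 7 (without vAKI replicate 1, 3 or 7 or control replicate 2, 3, 6 or 9, -1.11 to -0.89, adjusted p = 0.0564 to 0.119).

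After ischemia Adm was at 6.38, 6.02 and 4.38 CPM in the 3 iAKI females of replicates 1, 2 and 3, all below every control female, whereas the iAKI males had lain above every control male. The female minus male difference of the response was -1.71 ± 0.37 (edgeR, adjusted p = 0.00712). Hif3a was at 7.79, 2.85 and 4.11 CPM in the iAKI females and at 13.2, 3.40, 17.1 and 11.6 CPM in the control females, with a difference of -1.90 ± 0.51 (adjusted p = 0.0181). Egln1 was at 68.3, 69.2 and 83.1 CPM against 72.4, 59.2, 58.4 and 59.7 CPM, with 0.75 ± 0.19 (adjusted p = 0.0130). Ankrd37 (chr8:45996902-46005707), an ankyrin repeat protein gene induced in hypoxia, was at 0.410, 1.20 and 0.972 CPM against 0.986, 5.42, 5.84 and 5.32 CPM, with -2.15 ± 0.69 (adjusted p = 0.0403). Its control female of replicate 1 was thus as low as the iAKI females. That control alone shares the number series of the iAKI libraries, so injury and series are hard to separate in females. Against it Adm and Hif3a were lower in every iAKI female, whereas its Egln1 and Ankrd37 values lay within the iAKI range. With the number series as a covariate the differences of Hif3a, Egln1 and Adm passed, and that of Ankrd37 did not.

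Thus 3 members of 10 had a lower and 1 a higher iAKI response in females, against 6.51% and 4.03% of all genes, 10.5% together. With a log2 size of at least 1 required as well, Hif3a, Adm and Ankrd37 passed for the iAKI response, 3 members against 6.98% of all genes, and Vegfa and Adm for the vAKI response, 2 members against 10.8%. Without the iAKI female of replicate 3 none of the 4 iAKI differences passed, with Adm at -1.56 (edgeR, adjusted p = 0.0512), Hif3a at -1.79 (adjusted p = 0.0868), Egln1 at 0.65 (adjusted p = 0.0784) and Ankrd37 at -2.26 (adjusted p = 0.108). Hif3a was also lost without iAKI replicate 2 or control replicate 3 or 9, at -1.77 to -1.63 with adjusted p of 0.0507 to 0.0565. Ankrd37 was lost in 10 of 15 cases (without iAKI replicate 1, 3, 5, 6 or 7 or control replicate 2, 3, 6, 9 or 10), at -2.26 to -1.82 with adjusted p of 0.0560 to 0.108. In the same tests of the sexes 4 of 6 principal cell, 2 of 7 intercalated cell, 1 thick ascending limb and 1 fat marker had a higher iAKI response in females and 1 macrophage marker a lower one. For vAKI 5 of 6 principal cell, 3 of 4 thick ascending limb and 1 intercalated cell marker had a higher response, and 2 endothelial and 1 macrophage marker a lower one. Their part in the sex differences was not tested. Ankrd37 rests on few reads, 19 to 145 per library in Hoxb7 controls, and 26.4% of its exon bases overlap the opposite-strand genes Lrp2bp and Ufsp2. In Atp6b1v1 mice no member, and none of the 21175 genes, passed for a sex difference of either response by edgeR, with 1 member (Adm) and 2 members (Egln3 and Vegfa) and 676 and 1756 genes (3.19% and 8.29%) at an unadjusted p under 0.05, and DESeq2 called 1 and 44 genes.

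**Figure D5:**
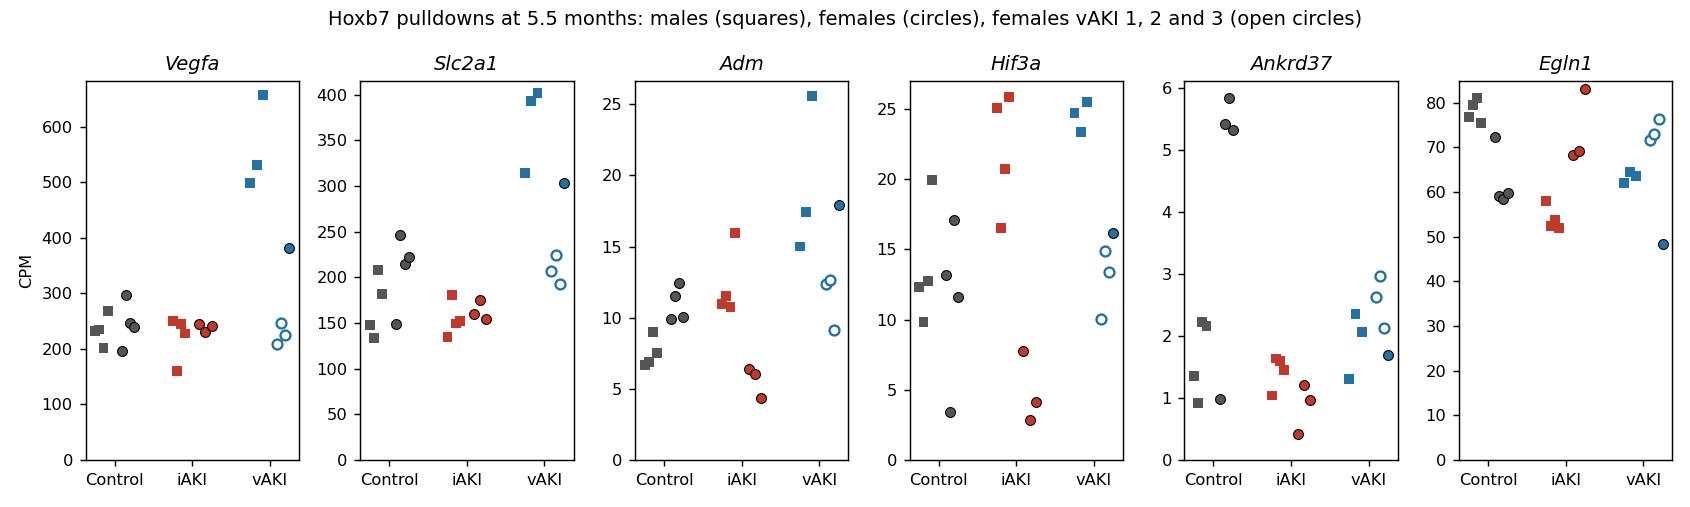
CPM of 6 genes in Hoxb7 pulldowns of 5.5 months, by state and sex, each axis from 0. Squares are males, circles females, and open circles the vAKI females of replicates 1, 2 and 3. For Vegfa the 3 vAKI males lie at 500 to 658 CPM and the 4 vAKI females at 208 to 381 CPM.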

How the data were processed

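RNA-seq was done on 48 pulldown and 21 Total libraries from 69 kidney RNA samples. The authors deposited raw counts per gene, made from poly(A) libraries with CASAVA 1.8.2, Trimmomatic 0.36, STAR 2.5.3a and HTSeq 0.6.1p2 on mm10 per the submitters' processing notes, in which reads mapping to several places are not counted. Reads carry no molecular identifiers. Pulldown may favour uracil-rich RNA. Groups came from the sample titles. Control pulldown and Total libraries are equal in number per genotype, sex and age. The paper gives 21 mice for its comparisons of control pulldowns with Total RNA, so both kinds may come from the same mice. The labels pair none of them, so they were treated as independent. If they share mice, the sex test over the 42 control libraries counted the same mice again, and the tests against Total ignored a pairing. Where samples are not separate mice, p-values measure technical spread. CPM was scaled by TMM over the 69 libraries. Genes with at least 2 counts over all libraries were tested with edgeR 4.0.16 (R 4.3.3) by the quasi-likelihood test, and p-values were adjusted by Benjamini-Hochberg over 21175 genes, with 0.05 as the threshold. Errors are SE of the log2 fold change unless given as SD. Injury fits used 22 male pulldown libraries of 5.5 months, sex fits 43 pulldown libraries and control fits 42 libraries with sex as a covariate. On simulated counts for vAKI against Control in Hoxb7 males with 21175 genes, 96% of 100 genes changed by a log2 of 2 and 63% of 100 changed by 1 were recovered, with 7 of 20975 unchanged genes called. In the real comparison 35.5% of all genes passed, a far larger share than was changed there, so the recovered shares need not hold for it. Of each list of further pathway genes, up to 4 genes per direction with the largest change past the threshold and a mean of at least 10 counts were named, except for a gene that is not reported here. Alternatives were DESeq2 1.42.0, other scaling and filters, covariates, other sets of mice and leaving out each library. The members and lists were chosen with earlier results of these data known.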

Additional observations from a re-analysis of the deposited data

Results flagged for a closer look

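Outlying libraries were sought with Dixon's test at the 95% level for the 10 members in the 5 pulldown groups of 6 to 10 libraries, both sexes together. Of 50 pairs of gene and group 4 had a library far from the others, where chance gives about 1 in 20 groups. Hif1a was at 854 CPM in the vAKI Hoxb7 female of replicate 1, and at 432 to 556 CPM in the other 6 libraries of that group. Hif3a was at 3.40 CPM in the control Hoxb7 female of replicate 6, and at 9.83 to 19.9 CPM in the others. Vegfa was at 160 CPM in the iAKI Hoxb7 male of replicate 5, and at 228 to 250 CPM in the others. Ankrd37 was at 0.410 CPM in the iAKI Hoxb7 female of replicate 1, and at 0.972 to 1.64 CPM in the others.

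Differences of a response between genotypes or sexes that passed the test of the difference itself (quasi-likelihood test of edgeR, Benjamini-Hochberg adjusted) were these. Between Atp6b1v1 and Hoxb7 males the iAKI response differed by -0.76 on the log2 scale for Epas1 and by -1.89 for Hif3a, and the vAKI response by -1.20 for Vegfa. Between females and males of Hoxb7 mice the iAKI response differed by -1.90 for Hif3a, 0.75 for Egln1, -1.71 for Adm and -2.15 for Ankrd37, and the vAKI response by -1.16 for Vegfa, -1.13 for Adm and -1.0 for Slc2a1. Without the 3 vAKI females in which Cyp27b1 was low, the vAKI differences between the sexes were smaller and kept their sign. Only 1 vAKI female is left in that fit, so it cannot decide whether these differences hold. The iAKI differences were lost without 1 iAKI female. Only 1 Hoxb7 control female shares the number series of the injured mice, so injury and series are hard to separate in females. With the series as a covariate all these sex differences but that of Ankrd37 passed.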

How the results depend on the processing

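The 10 members were followed through 16 comparisons, and 49 of the 160 pairs of member and comparison passed the threshold. Under the alternatives these gave 702 values, of which 697 had the same sign, 5 had turned and 578 still passed. Of 2048 alternative values of the other pairs, 51 newly passed.

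The counts of members passing moved as follows. With a log2 size of at least 1 they were 0 for iAKI Hoxb7, vAKI Atp6b1v1, Atp6b1v1 against Hoxb7 controls and female against male controls, 1 for iAKI Atp6b1v1, vAKI against iAKI in Atp6b1v1 and the iAKI difference between genotypes, and 2 for vAKI against iAKI in Hoxb7 and for both pulldowns against Total. In what follows the counts over all genes are in brackets. With DESeq2 2 passed for vAKI Atp6b1v1 (3984) and for the vAKI difference between genotypes (1616). Without the filter 1 passed for iAKI Hoxb7 (1172) and 1 for iAKI Atp6b1v1 (1652). With the number series as a covariate 2 passed for vAKI Atp6b1v1 (4504) and 3 for the vAKI genotype difference (2639). With both sexes the counts were 0 for iAKI Hoxb7 (625) and the iAKI and vAKI genotype differences (585 and 75). They were 3 for vAKI Atp6b1v1 (6409) and 6 for vAKI against iAKI in Atp6b1v1 (9407). In females only they were 1 for iAKI Hoxb7 (665), and 2 for vAKI Atp6b1v1 (3815) and for vAKI against iAKI in Hoxb7 (800). They were 0 there for vAKI Hoxb7 (23), iAKI Atp6b1v1 (563), the iAKI and vAKI genotype differences (0 and 0) and Atp6b1v1 against Hoxb7 controls (748). With 25 males of both ages they were 1 for iAKI Hoxb7 (1287) and iAKI Atp6b1v1 (2446) and 2 for vAKI Atp6b1v1 (4238) and the vAKI genotype difference (1285). With only the groups compared 1 passed for vAKI against iAKI in Atp6b1v1 (3596). Between the control pulldowns 1 passed in males only (2214) and 1 in mice of 5.5 months (1722). Without the vAKI Hoxb7 females of replicates 1, 2 and 3, an alternative chosen after seeing the data, 0 passed for the vAKI genotype difference with both sexes (145). The vAKI difference between the sexes in Hoxb7 then rests on 1 vAKI female, so its count of calls cannot be read. The cause of these moves was not tested.

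Some values turned in sign with females. Adm in iAKI Hoxb7 was -0.018 with both sexes and -0.97 in females only, Egln1 there 0.24, Egln3 in vAKI Atp6b1v1, which had not passed, 0.61, and the genotype difference 0.024 for Hif3a in iAKI and 0.50 for Vegfa in vAKI, all in females only. In females only Vegfa, Adm and Slc2a1 in vAKI Hoxb7 were 0.11, 0.24 and 0.15, and with both sexes without the 3 vAKI females 1.12, 1.02 and 0.98.

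Without 1 library at a time the counts of members moved as follows, with the counts over all genes in brackets. They ran from 1 to 2 (645 to 1125) for iAKI Hoxb7 and 4 to 5 (6082 to 7378) for vAKI Hoxb7. In Atp6b1v1 they ran from 0 to 2 (410 to 2041) for iAKI and 1 to 3 (1640 to 4558) for vAKI. For vAKI against iAKI they were 3 to 4 (5406 to 6379) in Hoxb7 and 2 to 3 (4178 to 6603) in Atp6b1v1. The genotype differences gave 1 to 3 (599 to 2435) for iAKI and 1 to 1 (411 to 1033) for vAKI. The sex differences in Hoxb7 gave 0 to 4 (162 to 3904) for iAKI and 1 to 4 (1646 to 5929) for vAKI.

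Replicate numbers are shared between groups only as numbers, since same-numbered libraries did not deviate together (mean correlation of deviations -0.02 over the 3 pairs of iAKI and vAKI Hoxb7 males, and from -0.41 to 0.20 over the other group pairs, which had 1 or 2 pairs or none). With the replicate block 31 of the 49 pairs passed, all 49 kept their sign and 6 others newly passed. The count was 0 for iAKI Atp6b1v1, the iAKI and vAKI genotype differences and the iAKI and vAKI sex differences in Hoxb7. Over all genes 0, 0, 53, 0 and 1 passed in these.

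Counts over all genes also moved. For iAKI Hoxb7 1298 became 2146 with DESeq2, 3078 with the series covariate, 625 with both sexes and 665 in females. For vAKI Hoxb7 7521 became 4437 with the block, 2704 with both sexes (6894 without the 3 vAKI females) and 23 in females, of which those 3 are part. For iAKI Atp6b1v1 1803 became 2883, 2897, 3991 and 563 with DESeq2, the series covariate, both sexes and females, and 0 with the block (3279 at an unadjusted p under 0.05). For vAKI Atp6b1v1 3086 became 6409 with both sexes and 1311 with only the groups compared. For vAKI against iAKI 7049 became 800 in females in Hoxb7 (8610 with both sexes without the 3 females), and 6194 became 9407 with both sexes and 3596 with only the groups compared in Atp6b1v1. For the iAKI genotype difference 1649 became 2831 with DESeq2, 3123 with the series covariate, 585 with both sexes and by edgeR 0 with the block and 0 in females (3813 and 1525 at an unadjusted p under 0.05). For the vAKI genotype difference 890 became 1616, 2639, 75, 53 and 0 with DESeq2, the series covariate, both sexes, the block and females (4450 unadjusted), and 145 with both sexes without the 3 vAKI females. For the sex difference in Hoxb7 2231 became 0 with the block in iAKI (1915 unadjusted), and 3387 became 1 with the block in vAKI. Atp6b1v1 against Hoxb7 controls went from 2103 to 748 in females, and female against male controls from 6410 to 3164 with the block. Ankrd37 had 19 to 46 counts in control Hoxb7 males, and intervals for it are the widest of the members. The part of read number in their width was not tested.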
